A study of Mus musculus with 6 samples.

Results

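The insulin-like growth factor (IGF) axis was examined in mouse pre-osteoblasts through its 2 ligands, 2 receptors and 6 binding proteins: Igf1, Igf2, Igf1r, Igf2r, Igfbp2, Igfbp3, Igfbp4, Igfbp5, Igfbp6 and Igfbp7. Members were taken as array probes whose single annotated symbol is one of these names. Of the 10 genes, 9 had a probe, 1 each, among 8841 named genes on the array, and all 9 probes passed the filter on low values. Igfbp2 had no such probe and was not analysed here. The cells were 2T3, an immortalised pre-osteoblast line established from mouse calvaria. In the first group, 3 samples in OptiCells, closed culture cassettes, were turned on a Random Positioning Machine, which changes a culture's orientation continuously. Their sample titles read Microgravity, and the group is called simulated microgravity here. In the second, 3 samples in the same cassettes stayed static as controls. All 6 samples share the line, no source used here gives the exposure time, and the series title names differentiation and gene expression as the questions asked.

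IGF-I and IGF-II are secreted peptides that promote growth and survival of osteoblast lineage cells and are stored in bone matrix. Both signal through the tyrosine kinase Igf1r, while Igf2r, which is also the cation-independent mannose 6-phosphate receptor, takes up IGF-II and carries it to the lysosome. Binding proteins hold the ligands away from the receptor or deliver them to it, and proteases that cut the binding proteins set the ligands free.

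Levels are intensities divided by the array median, so a level of 1 is that of the middle probe. Probe sequences differ in brightness, so levels are compared between samples and not between genes. Values below 0.1 of the median were raised to this floor for the tests. Each array held 10337 to 10432 values. Simulated microgravity 2 and static 2 stood apart in dim signal, with 6.44% and 9.16% of values at the floor against 17.1% to 19.8% on the other 4 arrays. Log2 values correlated at 0.97 to 0.99 between arrays of a group and at 0.96 to 0.99 between arrays of different groups, across probes, which are not independent replicates.

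The label pre-osteoblast was set against marker genes. Of 8 osteoblast markers measured, 5 (Sparc, Postn, Col1a2, Col1a1 and Cdh11) lay above the array median on all 6 arrays, and 2 of the 8, the mineralisation enzyme Alpl and the parathyroid hormone receptor Pth1r, fell past the threshold in simulated microgravity, against 0.187% of all probes. That count was 0 with any single sample left out, without the second sample of both groups, and with the replicate number as a block. The marker list was chosen with earlier results of these data known, so the excess over all probes is no independent support. The remaining marker, Ibsp, lay below the median on all 6 arrays, at 0.154 to 0.289, with a log2 change of -0.05. Probes differ in brightness, so a level above the median is only a rough guide to a marker's presence. The summed osteoblast marker level was 211 to 267 in simulated microgravity and 318 to 453 in static samples. Bright probes weigh most in such a sum. Sparc alone had a mean of 137 in simulated microgravity and 201 in static samples, and Postn had 39.1 and 75.7. Of 5 adipocyte markers, Fabp4, Lpl and Pparg lay above the median on every array, Adipoq near the floor and Cebpa below the median. That list summed to 35.8 to 41.4 in simulated microgravity and 42.7 to 50.5 in static samples. Within it Lpl had means of 9.89 and 16.9 in simulated microgravity and static samples, whereas Fabp4, the brightest, had 26.5 and 26.1. Cebpa had levels of 0.242 to 0.559 over both groups and a log2 change of 0.36. Chondrocyte markers (0 of 5 above the median on all arrays) summed to 2.32 to 2.63 and 2.40 to 3.13 in simulated microgravity and static samples, and skeletal muscle markers (0 of 6) to 0.979 to 1.23 and 1.04 to 1.22. Among 3 macrophage and blood cell markers only Lyz2 was above the median, with sums of 2.29 to 2.78 in simulated microgravity and 2.45 to 3.26 in static samples, and Adgre1 was at the floor on every array. The part of these markers in the values below was not tested, and fewer cells of a type cannot be told apart from less RNA per cell.

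No member of the IGF axis passed the threshold of an adjusted p of 0.05 in limma's moderated test over all 10146 probes (0 of 9, lowest adjusted p = 0.322), where 28 probes or 0.276% passed. At an unadjusted p under 0.05 there was 1 of 9, Igfbp4, with higher values in simulated microgravity, against 10.8% of all probes in either direction and 5.56% on the higher side. The groups did not overlap for 3 of the 9, against 15.7% of all probes. Of these, 1 had higher values in simulated microgravity (Igfbp4), against 8.11% of all probes, and 2 had lower values (Igf2 and Igf1r), against 7.57%. The median log2 change of the 9 was -0.26 with a range of -0.42 to 0.85, beside a median of 0.05 over all probes. The median of the 9 is the value of Igf1, which, like Igfbp3, lay at or near the floor. With 3 samples a group, the smallest p of an exact two-sided permutation test is 0.1, so such a test of a single gene cannot pass 0.05. Igfbp4, Igf2 and Igf1r each had that p of 0.1. Groups that do not overlap always give it, so it adds nothing to the count above.

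**Figure D1:**
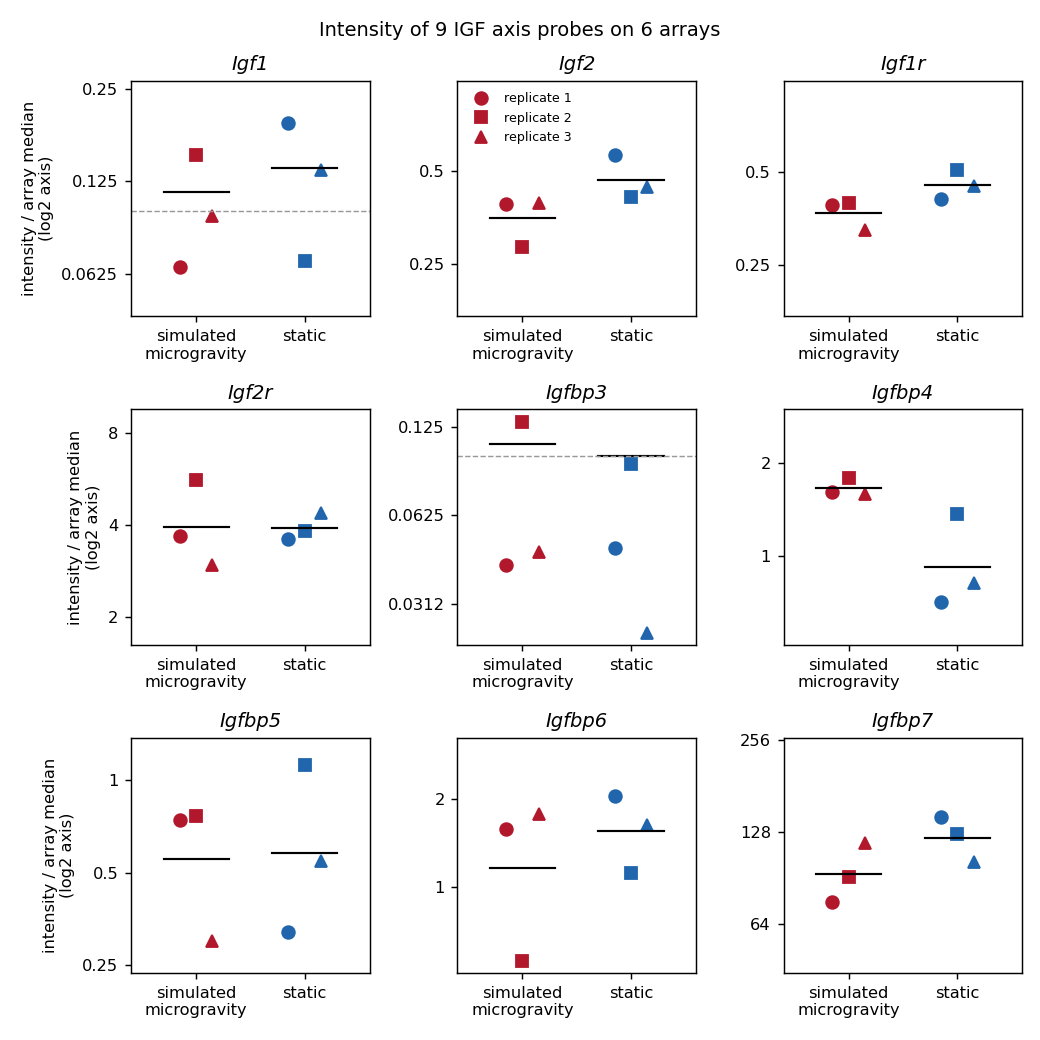
Intensity relative to the array median, on a log2 axis, for 9 IGF axis genes in simulated microgravity (red, left) and static samples (blue, right). Marker shapes give the replicate number, black lines the mean of log2 values after the floor, and grey dashed lines the floor at 0.1, drawn where values come near it. Igfbp4, Igf2 and Igf1r are the 3 genes whose groups do not overlap.

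Of the ligands, Igf2 was measured below the array median in every sample and Igf1 near the floor. Igf2, which encodes IGF-II, the ligand cleared by Igf2r, had levels of 0.393, 0.284 and 0.395 in simulated microgravity 1, 2 and 3, against 0.564, 0.412 and 0.445 in static 1, 2 and 3. Every simulated microgravity sample lay below every static sample, with the closest pair at 0.395 and 0.412. The group means were 0.357 ± 0.0635 and 0.474 ± 0.0799 in simulated microgravity and static samples (SD, n = 3 each), and the log2 change of -0.41 had an SE of 0.25 (95% interval -0.999 to 0.18, limma adjusted p = 0.703). Without simulated microgravity 2 the change was -0.25.

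Igf1, which encodes the ligand induced by growth hormone and, in osteoblasts, by parathyroid hormone, had levels before the floor of 0.0655, 0.152 and 0.0963 in simulated microgravity 1, 2 and 3. The static samples had 0.194, 0.0688 and 0.136. In simulated microgravity 2 of the 3 samples were under the floor, in the static group 1 of 3, and the groups overlapped. The log2 change on floored values was -0.26 (SE 0.28, limma adjusted p = 0.869), and a change of Igf1 was not detectable at this signal. Without simulated microgravity 2 and static 2, the arrays with fewer values at the floor, it was -0.70 (limma adjusted p = 0.507, range over 16 alternatives 0.470 to 0.997), with both remaining simulated microgravity samples at the floor. With single samples left out it lay between -0.50 and -0.02, at -0.02 without static 1.

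Both receptors were measured above the floor on every array. Igf1r, the signalling receptor for both ligands, had levels of 0.393, 0.397 and 0.324 in simulated microgravity 1, 2 and 3, against 0.410, 0.509 and 0.452 in static 1, 2 and 3. The groups did not overlap, by a margin of 0.397 against 0.410 between the nearest samples. The means were 0.371 ± 0.0408 in simulated microgravity and 0.457 ± 0.0496 in static samples (SD, n = 3 each). The log2 change of -0.30 (SE 0.21) had a 95% interval of -0.81 to 0.21, which includes no change (limma adjusted p = 0.805).

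Igf2r, the receptor that removes IGF-II and sorts lysosomal enzymes, had levels of 3.70, 5.59 and 2.97 in simulated microgravity 1, 2 and 3. In static 1, 2 and 3 its levels were 3.60, 3.82 and 4.38, all inside the range of the simulated microgravity samples. The log2 change was 0.01 (SE 0.25, 95% interval -0.58 to 0.60, limma adjusted p = 1.00), and its sign turned with quantile (-0.035) and cyclic loess normalization (-0.030) and with another scaling factor (-0.0085). It also turned without simulated microgravity 2, at -0.24.

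**Figure D2:**
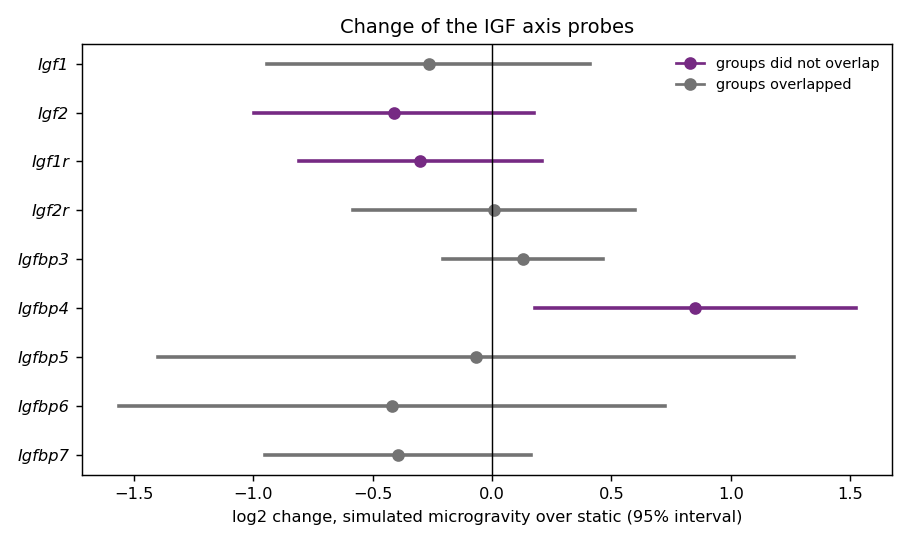
Log2 change of each IGF axis gene, simulated microgravity over static, with the 95% interval of limma's fit as a bar. Purple marks the 3 genes whose groups did not overlap and grey the other 6; every interval but that of Igfbp4 includes 0.

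Among the binding proteins, Igfbp4 differed most between the groups and was the member with higher values in simulated microgravity whose samples did not overlap. IGFBP-4 is made by osteoblasts and mainly restrains IGF action until the metalloprotease PAPP-A cuts it. Its levels were 1.62, 1.79 and 1.59 in simulated microgravity 1, 2 and 3, against 0.705, 1.37 and 0.812 in static 1, 2 and 3. The simulated microgravity samples were close together and the static samples spread 1.94-fold, with static 2 nearest to the other group. The means were 1.67 ± 0.108 in simulated microgravity and 0.963 ± 0.357 in static samples (SD, n = 3 each), a ratio of 1.80 on the log2 scale of the fit (95% interval 1.13 to 2.87). The log2 change of 0.85 (SE 0.28) had an unadjusted p of 0.0201 by limma and did not pass adjustment (adjusted p = 0.322, rank 631 of 10146 probes). The log2 change was 1.08 without simulated microgravity 2 and static 2 (limma adjusted p = 0.337, range over 19 alternatives 0.125 to 0.689).

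Igfbp7, a secreted protein that binds IGFs with lower affinity than the other members and is also deposited in matrix, gave a strong signal in every sample. Its levels were 75.9, 91.4 and 118 in simulated microgravity 1, 2 and 3, against 144, 126 and 102 in static 1, 2 and 3. The groups overlapped, as simulated microgravity 3 was above static 3. The means were 95.1 ± 21.3 in simulated microgravity and 124 ± 20.8 in static samples (SD, n = 3 each), with a log2 change of -0.39 (SE 0.23, 95% interval -0.95 to 0.17, limma adjusted p = 0.698). Without simulated microgravity 1 the change was -0.24. The unadjusted p was 0.139, against 0.0190 with quantile and 0.00818 with cyclic loess normalization, where the adjusted p was 0.283 and 0.198 (range over 19 alternatives 0.198 to 0.917).

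Igfbp5, which is abundant in bone and binds hydroxyapatite and matrix proteins, varied within both groups by more than between them. Levels were 0.744, 0.764 and 0.2998 in simulated microgravity 1, 2 and 3, and 0.321, 1.12 and 0.544 in static 1, 2 and 3. The range within the simulated microgravity group was 2.55-fold and within the static group 3.50-fold. Simulated microgravity 3 and static 1 were the low samples. The log2 change of -0.07 had an SE of 0.56 and a 95% interval of -1.40 to 1.27 (limma adjusted p = 0.995). Ratios of simulated microgravity over static from 0.379 to 2.40 lie inside it. Its sign turned without simulated microgravity 3 (0.38) and without static 2 (0.41).

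Igfbp6, which binds IGF-II in preference to IGF-I, had levels of 1.58, 0.556 and 1.77 in simulated microgravity 1, 2 and 3, and 2.05, 1.12 and 1.63 in static 1, 2 and 3. The groups overlapped, and the second sample of each group was its lowest. The log2 change of -0.42 (SE 0.48, 95% interval -1.56 to 0.72, limma adjusted p = 0.877) rested on simulated microgravity 2, without which it was 0.11.

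Igfbp3, which encodes the main carrier of IGFs in serum, was at or under the floor in 5 of the 6 samples. Before the floor its levels were 0.0422, 0.131 and 0.0468 in simulated microgravity 1, 2 and 3, and 0.0482, 0.0940 and 0.0248 in static 1, 2 and 3. The second sample of each group was the highest, and these are the 2 arrays with the fewest values at the floor. The fitted log2 change of 0.13 (SE 0.14, limma adjusted p = 0.872) is that of floored values, was 0 without simulated microgravity 2, and gives no measure of the transcript. Igfbp1, the neighbouring gene of Igfbp3 in the mouse assembly GRCm38.p6, no member of the set and singled out with its values in view, had 0.210, 0.281 and 0.220 in simulated microgravity 1, 2 and 3, against 0.242, 0.146 and 0.201 in static 1, 2 and 3.

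**Figure D3:**
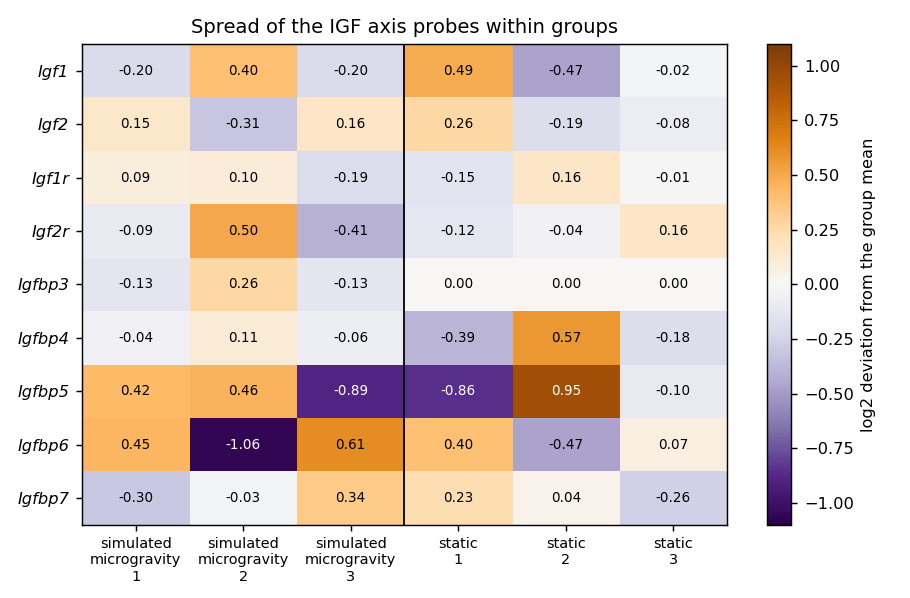
Log2 deviation of each sample from its group mean, for the 9 genes (rows) in 3 simulated microgravity (left) and 3 static samples (right), with values printed in the cells. Igfbp5 and Igfbp6 spread most, with Igfbp5 at -0.89 on simulated microgravity 3 and -0.86 on static 1, and Igfbp6 at -1.06 on simulated microgravity 2.

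The spread within groups differed widely among the members. The SD of log2 values was 0.16 in both groups for Igf1r, whereas it was 0.77 in simulated microgravity and 0.91 in static samples for Igfbp5. Igfbp6 had 0.92 and 0.44, and Igfbp4 0.09 and 0.51, in simulated microgravity and static samples. Igf2 and Igfbp6 shared the pattern of a lowest value on the second sample of each group, at deviations of -0.31 and -0.19 for Igf2 and -1.06 and -0.47 for Igfbp6 on simulated microgravity 2 and static 2. The part of the differing share of dim values on these arrays was not tested.

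Genes with profiles most like the members with the smallest p, Igfbp4 and Igfbp7, were taken by Pearson correlation of log2 values over the 6 samples. The search covered 4477 genes above the array median, so high values arise easily among so many, and r is given as a description that includes the group difference. For Igfbp4 the genes were Abhd6, a monoacylglycerol hydrolase (r = 0.998), Tomm40, the channel of the mitochondrial outer membrane translocase (r = 0.986), and Rassf1, a RAS association domain protein (r = 0.986). Tomm40 had 2.88, 3.01 and 2.66 in simulated microgravity 1, 2 and 3, against 1.49, 2.36 and 1.83 in static 1, 2 and 3, and like Igfbp4 was highest among static samples in static 2. For Igfbp7 they were the sugar transporter Slc50a1, the homeobox gene Msx2, which acts in skull and limb development, and Card19, at r = 0.989, 0.988 and 0.988 in that order. Msx2 had 4.82, 5.71 and 8.21 in simulated microgravity 1, 2 and 3, against 11.4, 8.46 and 6.72 in static 1, 2 and 3, with limma adjusted p = 0.619.

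The rest of the pathway was described through 8 lists of genes around the members, each gene by its brightest probe. Among the listed genes, Pth1r alone passed the threshold over all probes.

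Of 18 measured proteases of binding proteins and their inhibitors, 0 passed and 6 did not overlap between groups, against 15.7% of all probes. Of these 6, 5 had lower values in simulated microgravity, against 7.57% of all probes, and 1 had higher values, against 8.11%. Their median log2 change of -0.06 ran from -0.36 with the dimmest 25% of probes left out to 0.06 with no floor, and its sign turned in 3 of 19 alternatives. Htra1, a secreted serine protease that cuts IGFBP-5, had 5.84, 7.04 and 6.26 in simulated microgravity 1, 2 and 3, against 10.6, 10.4 and 9.50 in static 1, 2 and 3 (log2 change -0.67, SE 0.13, limma adjusted p = 0.113). The metalloproteinase inhibitor Timp2 had 10.8 ± 2.03 in simulated microgravity and 19.3 ± 3.06 in static samples (SD, n = 3 each; limma adjusted p = 0.155). The matrix metalloproteinases Mmp3 and Mmp2 had log2 changes of 0.58 and -0.39 (limma adjusted p = 0.431 and 0.530). The groups did not overlap for Mmp3, which was dim at 0.165 to 0.370, and overlapped for Mmp2. Pappa, which encodes the IGFBP-4 protease PAPP-A and was singled out with its values in view, was at the floor in 4 of 6 samples, so no change of it was detectable. Its inhibitor Stc2, singled out likewise, had 2.92 ± 0.501 in simulated microgravity and 2.51 ± 0.622 in static samples (SD, n = 3 each; log2 change 0.24, limma adjusted p = 0.857).

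A list of other genes related to IGF binding or to the binding proteins gave 0 of 9 past the threshold. Of the 9, 5 did not overlap (15.7% of all probes), 4 lower (7.57%) and 1 higher (8.11%) in simulated microgravity. Of the 4 lower genes, Igfals lay under or near the floor. Before the floor it had 0.0383, 0.130 and 0.0701 in simulated microgravity 1, 2 and 3, against 0.152, 0.142 and 0.137 in static 1, 2 and 3. The gene with higher values was Ccn2, a matricellular protein, at 46.7, 54.7 and 55.3 in simulated microgravity 1, 2 and 3 against 23.8, 33.9 and 34.4 in static 1, 2 and 3 (log2 change 0.78, SE 0.19, limma adjusted p = 0.182). Its relatives Ccn5 and Ccn3 had log2 changes of -0.84 and -0.83 (limma adjusted p = 0.191 and 0.322). Esm1, a secreted proteoglycan of endothelium that carries an IGFBP-type domain, had 5.90 ± 0.907 in simulated microgravity and 10.0 ± 1.23 in static samples (SD, n = 3 each; limma adjusted p = 0.146).

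**Figure D4:**
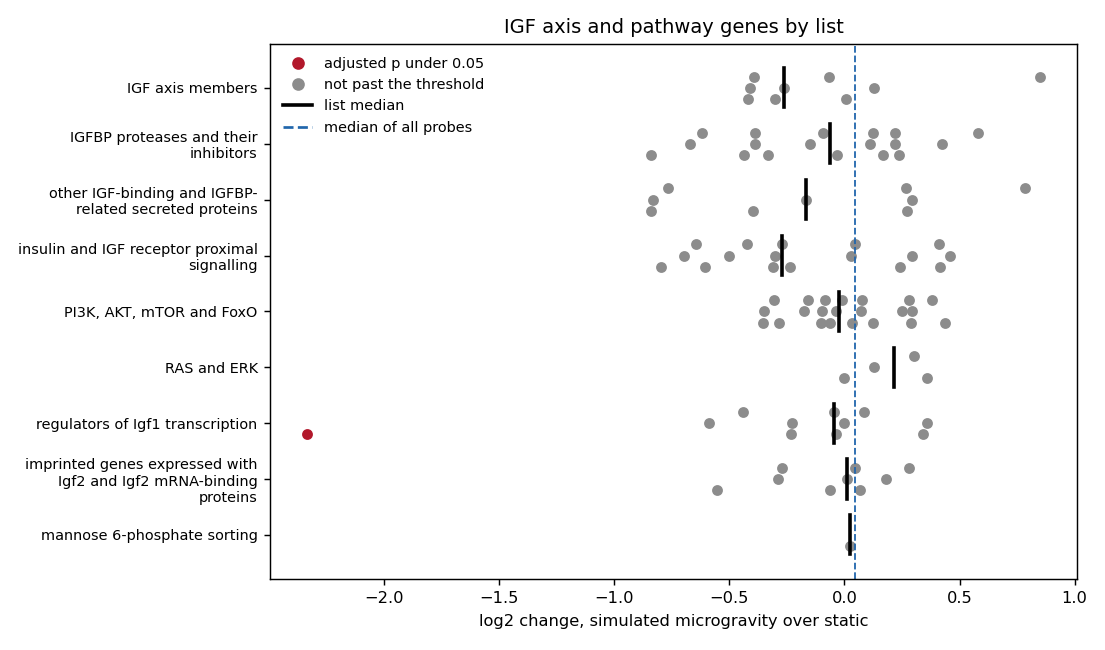
Log2 change, simulated microgravity over static, of each measured gene in the IGF axis and 8 lists of related genes. Each point is a gene, black bars are list medians, the dashed line is the median of all probes at 0.05, and the red point is Pth1r, the gene past the threshold.

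At and near the insulin and IGF receptors, 0 of 17 receptors, adaptors, inhibitors and other signalling genes passed. Of the 17, 2 did not overlap (Socs2, lower, and the receptor Insrr, higher), against 15.7% of all probes. Insrr had a log2 change of 0.30 (SE 0.21, limma adjusted p = 0.804). The median log2 change of the 17, -0.27, was -0.11 without simulated microgravity 3 and 0.0029 without static 2. Socs2, a feedback inhibitor of growth hormone signalling, had 7.41, 7.03 and 8.75 in simulated microgravity 1, 2 and 3, against 10.6, 10.5 and 11.6 in static 1, 2 and 3 (log2 change -0.50, SE 0.14, limma adjusted p = 0.235). The adaptor Grb2, the phosphatase Ptpn1, which acts on the insulin receptor, and the cytokine feedback inhibitor Socs1 had log2 changes of -0.42, -0.61 and -0.70 with overlapping groups. The 22 genes of the PI3K, AKT, mTOR and FoxO branch had log2 changes between -0.35 and 0.44 with a median of -0.03, whose sign turned in 6 of 19 alternatives, and 0 passed. Of the 22, 1 (4.55%) did not overlap, a share below the 15.7% of all probes. This was Rheb, the small GTPase that activates mTOR. Its levels were 93.8 to 113 in simulated microgravity and 77.3 to 85.0 in static samples (log2 change 0.38, limma adjusted p = 0.476). Pik3cb, a catalytic subunit of PI3-kinase, Eif4ebp1, the translation repressor that mTOR phosphorylates, and Tsc1, a restraint on mTOR, had 0.44, 0.29 and -0.35 on the log2 scale. In the ERK branch 0 of 4 passed, and 2 of 4 had higher values without overlap, against 8.11% of all probes. These were the kinases Map2k1 and Map2k2, with log2 changes of 0.36 and 0.30 (limma adjusted p = 0.414 and 0.476). Nras and Araf, which act above these kinases, had 0.13 and -0.0038.

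Of 11 measured regulators of Igf1 transcription, 1 fell past the threshold and 0 rose past it, against 0.187% of all probes that fell past it. This was Pth1r, ranked 1 of 10146 probes by p and also counted among the osteoblast markers above. Lists were chosen with earlier results of these data known, so the excess over all probes is no independent support. Of the 11, 7 had a negative and 4 a positive log2 change, and 3 had lower values without overlap, against 7.57% of all probes. Pth1r, whose ligand induces Igf1 in osteoblasts, had 0.967, 1.06 and 1.15 in simulated microgravity 1, 2 and 3, against 5.77, 5.27 and 4.96 in static 1, 2 and 3 (log2 change -2.34, SE 0.16, limma adjusted p = 0.0194). The call was lost without any 1 of the 6 samples, without the second sample of both groups, and with the replicate number as a block (limma adjusted p = 0.245, range over 19 alternatives 0.00404 to 0.307). The growth hormone receptor Ghr had 3.45, 2.61 and 2.91 in simulated microgravity 1, 2 and 3, against 3.58, 4.23 and 4.31 in static 1, 2 and 3 (log2 change -0.44, limma adjusted p = 0.409). Stat5a and Stat5b, the transcription factors that growth hormone activates, had log2 changes of -0.59 and 0.34. The groups were apart for Stat5a, as for Pth1r and Ghr, and overlapped for Stat5b. As set out above, Igf1 itself was too dim on these arrays to be set beside these genes.

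Of 9 imprinted genes expressed with Igf2 and Igf2 mRNA-binding proteins, 0 passed and 1 (11.1%) did not overlap, a share below the 15.7% of all probes. This was Cdkn1c, a cell cycle inhibitor imprinted in the same chromosome region as Igf2, with 0.308, 0.295 and 0.258 in simulated microgravity 1, 2 and 3, against 0.437, 0.336 and 0.505 in static 1, 2 and 3 (log2 change -0.55, SE 0.23, limma adjusted p = 0.460). Gnas, Peg3 and Mest, other imprinted genes, had log2 changes of -0.29, 0.28 and -0.27 with overlapping groups. M6pr, the smaller mannose 6-phosphate receptor that shares the sorting of lysosomal enzymes with Igf2r, was the single gene measured on its list, with a log2 change of 0.03 whose sign turned with quantile (-0.02) and cyclic loess normalization (-0.03).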

How the data were processed

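Total RNA of 6 samples was measured on expression arrays, 1 per sample. The authors deposited an intensity per probe on a linear scale; no source used here says how it was scanned, background-corrected or scaled. Values were divided by the median of their array, raised to a floor of 0.1 where lower, and put on the log2 scale. Probes at the floor on all arrays, or with under 2 values in either group, were not tested (354 of 10500). Groups were compared with limma 3.58.1 in R 4.3.3 (lmFit, eBayes with intensity trend, two-sided, Benjamini-Hochberg over 10146 probes, threshold 0.05). The fit was also run on simulated data with independent normal noise. No floor was applied to them and they lacked the shared dim signal of the second arrays, so they do not assess the fit on the present data. Mean ± SD is of floored levels. The labels do not say whether samples of a group are separate cultures, so the spread behind the p-values may be a technical one. The number of arrays limits the precision.

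Symbols are GEO's platform annotation: 8983 probes had 1 symbol, 1 several and 1516 none. No coordinates are given, as no source used here gives the probes' build. Genes named were all members, pathway genes past the threshold and otherwise the 4 of each pathway list with the smallest p, and the 3 genes most like each of 2 members. Cell type markers were named by whether they lay above the median, at or near the floor or past the threshold. Ibsp and Cebpa were named to complete the osteoblast and adipocyte lists. Igfbp1, Igfals, Insrr, Pappa and Stc2 were named with their values in view. Alternatives were the floor, normalization, scaling, dim-probe filters, variance model, array weights, a replicate block and samples left out. Members and lists were chosen with earlier results of these data known.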

Additional observations from a re-analysis of the deposited data

How the results depend on the processing

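The count of IGF axis probes past the threshold was 0 in all 19 alternatives (limma), with 0 to 2 of them at an unadjusted p under 0.05. The count over all probes (28) became 53 with the floor at 0.05 of the median, 59 with no floor, 54 with quantile and 56 with cyclic loess normalization, 59 and 54 with the dimmest 25% and 50% of probes left out, and 115 under array weights. It was 19 without the intensity trend, 29 with robust eBayes, 37 with scaling by the mean of the middle probes and 40 with the floor at 0.2. The count was 0 without static 2 and simulated microgravity 2, 0 (0 to 0) with any single sample left out, and 0 with the replicate block. In the unblocked fit 1100 probes had an unadjusted p under 0.05, with the block 938, and with samples left out 760 to 1081. Same-numbered samples deviated from their group means with correlations of -0.21, 0.45 and -0.18, so the numbers were not taken as pairs, and not every sample correlated best with its own number. Signs turned for Igf2r with quantile (-0.035), cyclic loess (-0.030), array weights (-0.12), scaling by the mean of the middle probes (-0.0085) and without static 2 and simulated microgravity 2 (-0.26), and over single samples left out Igf2r ran from -0.24 to 0.21. Igfbp5 turned with array weights (0.22) and without both second samples (0.18), and ran from -0.49 to 0.41 over single samples left out. Igfbp6 turned without simulated microgravity 2, and ran from -0.73 to 0.11 over single samples left out. The cause was not tested. Igfbp4 kept its sign in 19 of 19 alternatives (log2 change 0.66 to 1.14) with an unadjusted p under 0.05 in 16, and an adjusted p of 0.125 to 0.689. Igf1, Igf2, Igf1r and Igfbp7 kept theirs in each alternative that measured them (16, 18, 18 and 19). Dim signal limits Igf1 and Igfbp3, which were at or near the floor.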
